A study of Mus musculus with 14 samples.

Results

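Nuclear genes for respiratory complexes II to V, with cytochrome c, were followed in whole mouse hearts that differed in cardiac Sqstm1 and in age. The 37 genes were taken by name from textbook membership of the complexes and matched through the GENCODE M21 annotation, out of 55487 gene identifiers in the count table. They comprise 4 genes of complex II, 9 of complex III, 1 of cytochrome c, 14 of complex IV and 9 of complex V. All 37 passed the filter on low counts, as 15528 genes of the whole table did.

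The knockout hearts (KO) carry floxed Sqstm1 and a Cre recombinase under the Myh6 promoter (Myh6-Cre-Sqstm1 fl/fl), which is active in cardiac muscle cells, so the other cells of the heart keep the gene. Wild-type hearts (WT) are labelled only as wild type. All mice were untreated males of the C57BL/6 strain. The 14 libraries came from 4 KO and 4 WT hearts at 15 months of age and from 3 KO and 3 WT hearts at 2 months. The RNA was total RNA depleted of ribosomal RNA.

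In oxidative phosphorylation, complex II passes electrons from succinate to ubiquinone, complex III passes them on to cytochrome c, and complex IV hands them to oxygen. Complex III and complex IV move protons across the inner mitochondrial membrane, and complex V, the ATP synthase, uses their return to make ATP. The heart depends on this supply and uses muscle isoforms of several complex IV subunits. A few core subunits of complexes III, IV and V are encoded in mitochondrial DNA, whereas complex II is encoded wholly in the nucleus.

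The libraries held 20218992 to 30404416 counts, of which 27.5% to 46.0% fell on mitochondrially encoded genes. Sqstm1, which encodes the autophagy receptor p62, was at 14.6 to 37 CPM in KO against 173 to 238 CPM in WT at 15 months, and at 14.7 to 19.2 CPM in KO against 139 to 177 CPM in WT at 2 months. CPM is a count relative to the scaled library total. The 5 cardiac muscle markers summed to between 22825 and 35385 CPM in the 15-month libraries and between 18171 and 28873 CPM in the 2-month libraries. Of the skeletal muscle markers, the myosin gene Myh4 had 0 counts in all 14 libraries, Myh2 in 13, Myh1 in 12 and Tnnt3 in 3. Mylpf was detected in every library, at 0.126 to 2.37 CPM. Ckm and Acta1, on the same list, were at 1016 to 1543 and at 63.0 to 549 CPM. Some libraries stood apart in ways that touch the results that follow. WT replicate 1 at 2 months carried atrial transcripts, with 4 atrial markers summing to 1633 CPM against 90.9 to 148 CPM in the other 2-month libraries. Its fibroblast and smooth muscle markers were also the highest of the 2-month libraries, at 1121 and 343 CPM. The atrial sums of the other 2-month libraries were nearly all Nppa, with Myl7 at 0.0597 to 0.303 CPM against 638 CPM in WT replicate 1. At 15 months the atrial markers summed to 140, 5.56, 14.3 and 15.2 CPM in KO and 217, 43.9, 2.57 and 75.4 CPM in WT. Of these, Myl7 was at 58.1, 0.0695, 0.482 and 0.0421 CPM in KO and at 39.7, 15.0, 0.357 and 26.9 CPM in WT. KO replicate 1 and WT replicates 1, 2 and 4 at 15 months thus also carried atrial transcripts. The length slope, the change in a library's relative log2 CPM per doubling of exon length over all genes, lay between −0.177 and −0.0105 in the 2-month libraries and between 0.0469 and 0.235 in 6 of the 8 libraries at 15 months. The exceptions at 15 months were KO replicate 1, at −0.0916, and WT replicate 2, at −0.0744. KO replicate 1 also had the highest mitochondrial share of all libraries.

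Most complex II to V transcripts had lower values in the older hearts of both genotypes, with 33 of 37 log2 fold changes between 15 and 2 months below 0 in KO and 33 of 37 in WT. The median log2 fold change was −0.75 in KO and −0.56 in WT, beside 0.0058 and −0.018 over all genes tested. Few of these differences passed the test. In edgeR's quasi-likelihood test with Benjamini-Hochberg adjustment over all genes at 0.05, 3 of 37 (8.11%) were called lower with age in KO (Cyc1, Cox8a and Atp5g3) and none was called higher. In that comparison 2.25% of all genes were called, 1.18% of all genes as lower. In WT 1 of 37 (2.7%), Cox7c, was called lower, a share that rests on a single gene, where 1.04% of all genes were called and 0.425% as lower. At an unadjusted p under 0.05 the numbers were 29 of 37 in KO, where 4151 of all 15528 genes passed, and 22 of 37 in WT, where 3694 did. These calls did not hold under every setting. With the length slope of each library as a covariate 0 members were called in either genotype and the medians were −0.20 in KO and −0.13 in WT. With replicate number as a block 0 were also called, and the medians were −0.73 in KO and −0.53 in WT. Leaving out 1 library of the genotype gave 0 calls in KO, except 30 without replicate 1 at 15 months, and 0 in WT, except 6 without replicate 1 at 2 months. The 15-month and 2-month values did not overlap for 21 members in KO and for 8 in WT, and for 11.3% and 7.57% of all genes in the same direction. The length slope went with age, below 0 in all 2-month libraries and above 0 in most 15-month libraries. It was computed from the same counts, so length-dependent differences between libraries and changes with age cannot be told apart with it. Fewer cells of a type and less RNA per cell also cannot be told apart in RNA from whole hearts.

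**Figure D1:**
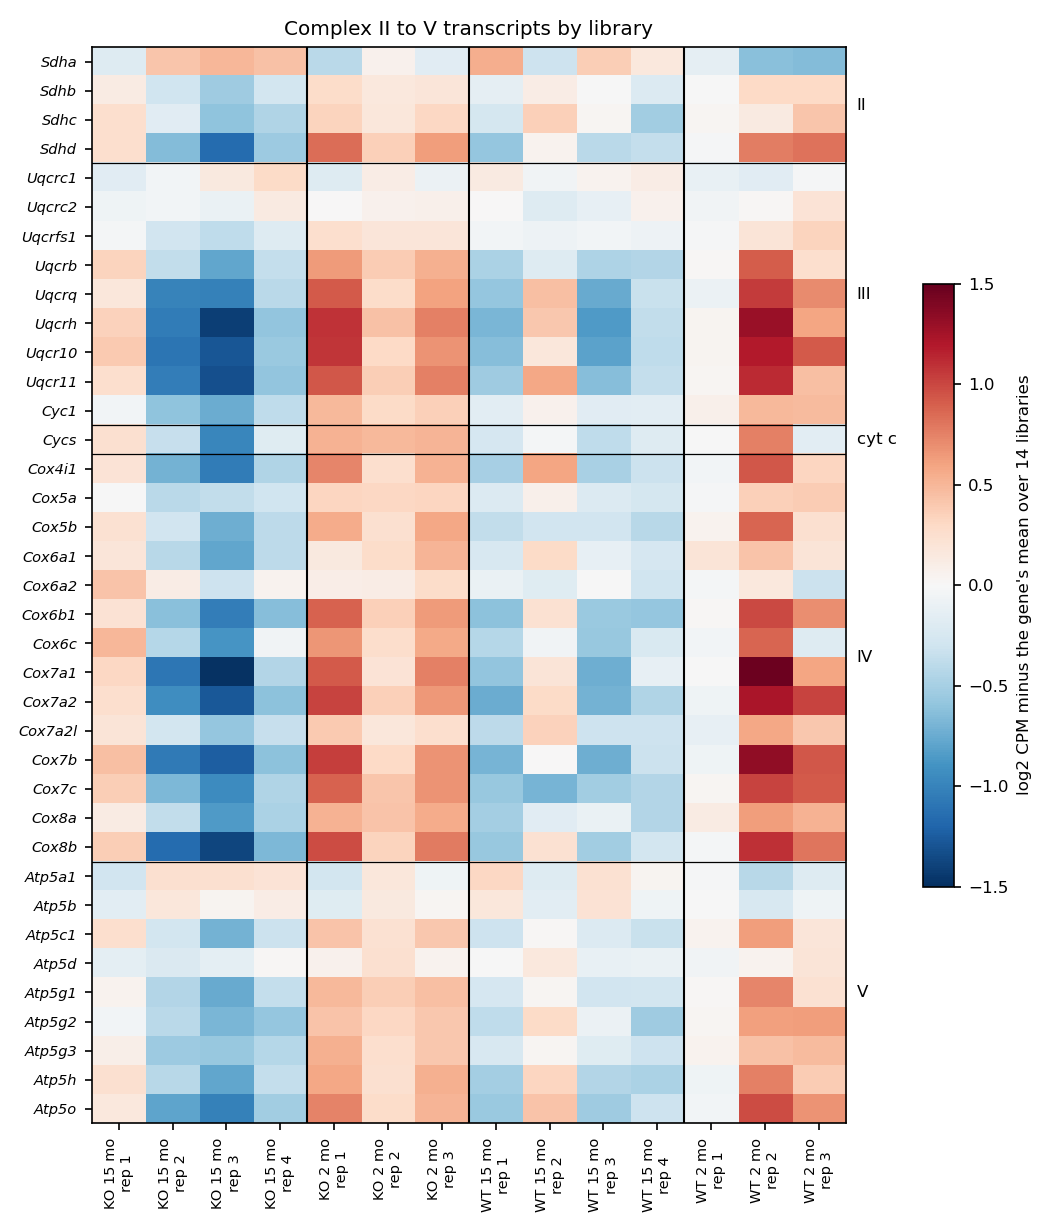
Level of each of the 37 transcripts in each of the 14 libraries, as log2 CPM minus the gene's mean over all libraries, with genes ordered by complex and libraries by genotype and age. Most rows are blue in the 15-month libraries and red in the 2-month libraries, while KO replicate 1 and WT replicate 2 at 15 months and WT replicate 1 at 2 months stand nearer to the other age.

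The called genes Atp5g3 and Cox8a are shown with the promoter bases before their annotated start, since they moved in the same direction and lie on different chromosomes. The sequences are RefSeq's on GRCm38.p6, 250 bases each, read 5′ to 3′ on the gene's strand. Capitals mark a match to AAGGTCA, the core motif of estrogen-related receptors, here on the reverse strand. The first lies at chr2:73911327-73911576 and the second at chr19:7217617-7217866, both on the minus strand.
Atp5g3: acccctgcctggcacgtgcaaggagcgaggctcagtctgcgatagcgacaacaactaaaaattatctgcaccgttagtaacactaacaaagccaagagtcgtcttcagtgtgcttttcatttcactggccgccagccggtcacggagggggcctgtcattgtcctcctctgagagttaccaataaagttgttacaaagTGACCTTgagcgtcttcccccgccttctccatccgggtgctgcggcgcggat
Cox8a: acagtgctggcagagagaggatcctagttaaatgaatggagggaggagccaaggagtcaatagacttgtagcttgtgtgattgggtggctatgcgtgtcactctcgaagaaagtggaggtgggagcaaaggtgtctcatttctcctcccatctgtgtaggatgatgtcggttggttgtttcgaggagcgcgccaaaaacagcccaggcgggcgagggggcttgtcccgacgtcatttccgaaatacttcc
Of the 37 genes 28 were in the promoter table, and 5 motifs were searched on both strands of these 250 bases. The NRF1 motif GCATGCGC was present in 14.3% of the members (Atp5g2, Cox6a1, Cycs and Sdhb) and 2.56% of all 27025 genes in the table. The GABP motif CCGGAAGT was present in 10.7% of the members (Atp5h, Uqcr11 and Uqcrh) and 3.23% of all genes. The motif AAGGTCA was found in 3.57% of the members (Atp5g3 alone) and 4.7% of all genes, and the SP1 motif GGGCGGGG in 7.14% (Atp5b and Sdhb) and 18%. The YY1 motif AAGATGGC was in 0 of the 28 and in 1.83% of all genes. Sdhb was the only member with more than 1 of these motifs.

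Complex II is the succinate dehydrogenase. Sdha, the flavoprotein that oxidises succinate, had 617, 938, 994 and 956 CPM in KO hearts at 15 months, against 535, 740 and 625 CPM in KO hearts at 2 months. In WT it had 1029, 570, 911 and 787 CPM at 15 months, against 645, 457 and 450 CPM at 2 months. In each genotype 1 library at 15 months fell within the 2-month range, so the ages overlapped. Its log2 fold change with age was 0.47 (SE 0.23) in KO and 0.67 (SE 0.23) in WT, the highest of the members in both, with adjusted p of 0.199 and 0.122 in edgeR's quasi-likelihood test. Sdhb, the iron-sulfur subunit, averaged 411 ± 81.3 CPM at 15 months and 554 ± 22.0 CPM at 2 months in KO (SD, n = 4 and n = 3), without overlap. Sdhc and Sdhd are the membrane anchors. Sdhd had 418, 224, 158 and 241 CPM at 15 months in KO against 627, 450 and 544 CPM at 2 months, a log2 fold change of −1.05, and in WT its log2 fold change was −0.87. Sdhc had log2 fold changes of −0.48 and −0.26, and Sdhb of −0.43 and −0.26, in KO and in WT. None of the 4 was called in either genotype, so the direction of Sdha opposite to its partners rests on values that did not pass the test.

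In complex III, Cyc1 was called in KO hearts. Cyc1, the cytochrome c1 subunit that reduces cytochrome c (ENSMUSG00000022551, chromosome 15, 76343523 to 76346260, GRCm38), had 451, 306, 277 and 356 CPM in KO at 15 months, against 651, 563 and 594 CPM at 2 months. Every 15-month KO library was below every 2-month KO library, and the log2 fold change was −0.79 (SE 0.17, adjusted p = 0.0318 in edgeR's quasi-likelihood test). In WT, Cyc1 had 416, 484, 413 and 414 CPM at 15 months, against 487, 651 and 645 CPM at 2 months. These groups also did not overlap, although replicate 2 at 15 months and replicate 1 at 2 months were 484 and 487 CPM, and the fold change of −0.46 was not called (adjusted p = 0.142 in the same test).

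Small subunits of complex III were below 0 with age in both genotypes, without any being called. Uqcrh, the acidic hinge protein, Uqcr11 and Uqcr10 had log2 fold changes of −1.30, −1.25 and −1.20 in KO and −1.02, −0.76 and −1.16 in WT. Uqcr11 showed how far libraries of 1 group differed, with 597, 244, 202 and 333 CPM in KO at 15 months against 960, 649 and 847 CPM at 2 months. Its WT values were 346, 752, 324 and 391 CPM at 15 months against 512, 1093 and 690 CPM at 2 months, and replicate 2 at 15 months lay above replicate 1 and replicate 3 at 2 months. The small subunits Uqcrq and Uqcrb had log2 fold changes of −1.1 and −0.75 in KO and −0.86 and −0.83 in WT. Uqcrfs1, the Rieske iron-sulfur protein, had 435, 363, 341 and 388 CPM in KO at 15 months against 528, 504 and 502 CPM at 2 months. In WT it had 431, 420, 431 and 419 CPM at 15 months against 439, 505 and 559 CPM at 2 months. The ages did not overlap in either genotype, with log2 fold changes of −0.42 and −0.24 that were not called. The core proteins lay near 0: Uqcrc1 had log2 fold changes of 0.11 in KO and 0.16 in WT, and Uqcrc2 of −0.07 and −0.12.

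Cycs, the soluble cytochrome c that carries electrons from complex III to complex IV, had 511, 340, 218 and 381 CPM in KO at 15 months against 618, 602 and 615 CPM at 2 months. The groups did not overlap in KO. In WT, Cycs had 362, 422, 331 and 378 CPM at 15 months against 428, 730 and 386 CPM at 2 months, and the groups overlapped. The log2 fold changes were −0.75 (SE 0.25) in KO and −0.46 (SE 0.25) in WT, with adjusted p of 0.0951 and 0.272 in edgeR's quasi-likelihood test.

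All 14 complex IV genes had log2 fold changes below 0 with age in both genotypes, with medians of −0.90 in KO and −0.75 in WT. Cox8a, the broadly expressed isoform of a small subunit (ENSMUSG00000035885, chromosome 19, 7215153 to 7217616, GRCm38), was called in KO. It had 74.8, 52.9, 37.9 and 49.3 CPM in KO at 15 months, against 98.4, 92.0 and 101 CPM at 2 months. In WT it had 48.1, 60.7, 64.0 and 50.7 CPM at 15 months, against 74.7, 106 and 98.5 CPM at 2 months. Neither genotype showed overlap between ages. The log2 fold change was −0.86 (SE 0.19, adjusted p = 0.0377 in edgeR's quasi-likelihood test) in KO and −0.73 (SE 0.19, adjusted p = 0.0774) in WT. Cox8b, its heart and skeletal muscle isoform, fell short of the threshold although its fold was larger. It had 672, 233, 200 and 326 CPM in KO at 15 months against 1021, 656 and 887 CPM at 2 months, and 350, 610, 361 and 429 CPM in WT at 15 months against 509, 1106 and 901 CPM at 2 months. In both genotypes 1 library at 15 months lay inside the 2-month range, and the log2 fold changes were −1.26 (SE 0.37) and −0.94 (SE 0.37).

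Cox7c, a small structural subunit (ENSMUSG00000017778, chromosome 13, 86044816 to 86046904, GRCm38), was the gene called in WT. It had 456, 415, 468 and 496 CPM in WT at 15 months, against 689, 1358 and 1277 CPM at 2 months. In KO it had 869, 421, 350 and 494 CPM at 15 months, against 1244, 902 and 1073 CPM at 2 months. The ages did not overlap in either genotype, although KO replicate 1 at 15 months, at 869 CPM, stood close to the lowest 2-month KO value. The log2 fold change was −1.27 (SE 0.28, adjusted p = 0.0462 in edgeR's quasi-likelihood test) in WT and −1.01 (SE 0.28, adjusted p = 0.0659) in KO. Cox7c shares 53.0% of its 50-base windows with other annotated transcripts, and counts on those other genes came to 1.85% of its own.

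Both isoforms of Cox7a had lower mean values at 15 months. Cox7a1, the muscle isoform, had 846, 321, 244 and 501 CPM in KO at 15 months against 1286, 784 and 1147 CPM at 2 months, and 452, 779, 408 and 625 CPM in WT at 15 months against 680, 1892 and 1027 CPM at 2 months. Cox7a2, the isoform of most other tissues, had 355, 156, 123 and 194 CPM in KO at 15 months against 600, 379 and 465 CPM at 2 months, and 177, 361, 181 and 218 CPM in WT at 15 months against 285, 692 and 598 CPM at 2 months. The 15-month values of Cox7a2 were below all 2-month values in KO, and the other 3 comparisons of these genes overlapped. The log2 fold changes were −1.17 and −1.22 in KO and −1.08 and −1.17 in WT for Cox7a1 and Cox7a2, and none was called. Cox7a2l, a related gene, had log2 fold changes of −0.50 in KO and −0.45 in WT.

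Cox6a2 stood apart from the other short complex IV transcripts. Cox6a2 is the heart and skeletal muscle isoform of a regulatory subunit, and it had 976, 787, 589 and 755 CPM in KO at 15 months against 778, 787 and 883 CPM at 2 months. In WT it had 677, 642, 727 and 592 CPM at 15 months against 715, 815 and 584 CPM at 2 months. The ages overlapped in both genotypes, with log2 fold changes of −0.071 (SE 0.17) and −0.095 (SE 0.17). The broadly expressed isoform Cox6a1 had 50.3, 33.2, 25.7 and 33.7 CPM in KO at 15 months against 48.9, 53.5 and 62.9 CPM at 2 months, and 37.5, 54.0, 40.8 and 37.1 CPM in WT at 15 months against 50.7, 59.6 and 50.5 CPM at 2 months. Its log2 fold changes were −0.63 in KO and −0.34 in WT, and neither was called. The remaining subunits of complex IV all lay below 0. Cox4i1, at which ATP is known to act as an inhibitor, had log2 fold changes of −0.94 in KO and −0.56 in WT, Cox5a of −0.58 and −0.40, and Cox5b of −0.72 and −0.77. Cox6b1, which faces the intermembrane space, had log2 fold changes of −1.09 and −0.96, Cox6c of −0.63 and −0.60, and Cox7b of −1.16 and −1.25, again in KO and in WT.

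**Figure D2:**
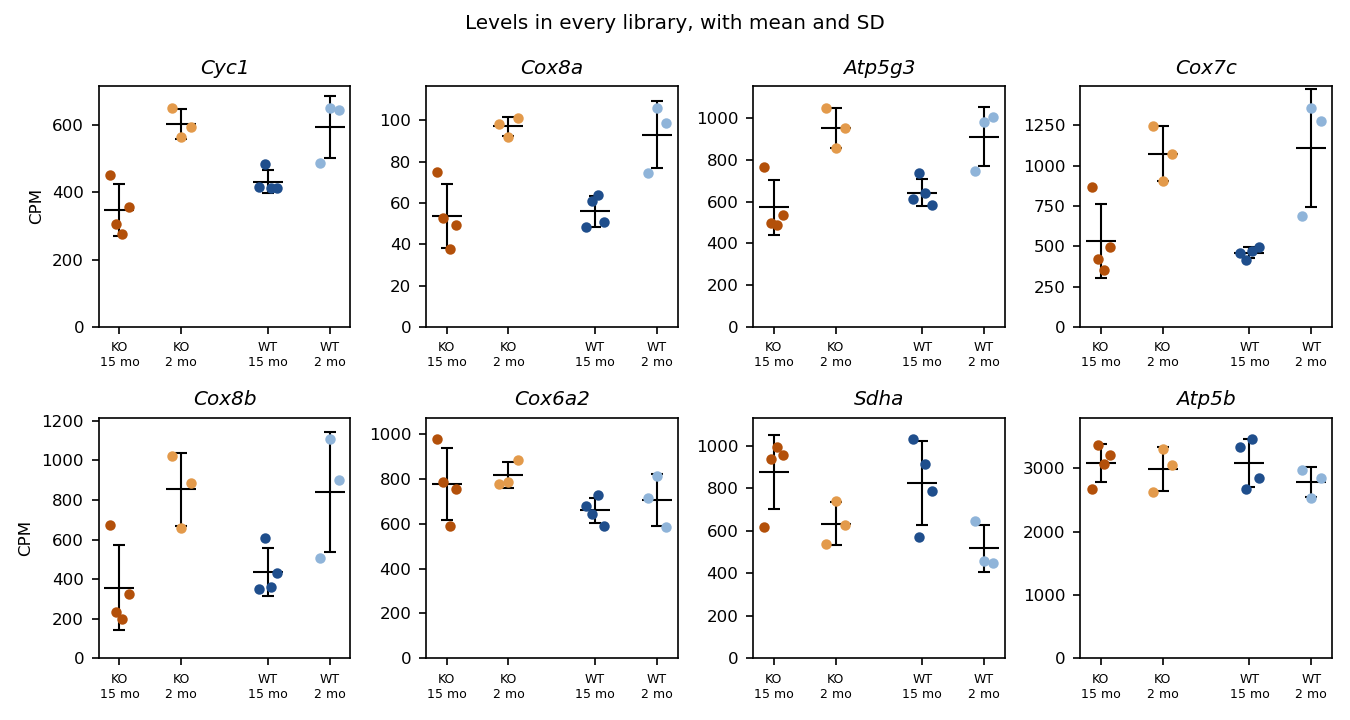
CPM of 8 members in every library (points) with the mean and SD of each group (bars), 15 months to the left of 2 months in each genotype. Cyc1, Cox8a, Atp5g3 and Cox7c are the genes called with age in 1 genotype. Cox8b moved in the same direction but overlapped between ages in both genotypes, as Cox6a2, Sdha and Atp5b also did.

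In complex V 7 of 9 genes were below 0 with age in each genotype, and the genes of the catalytic head were near 0. Atp5g3, 1 of 3 genes for the membrane c subunit (ENSMUSG00000018770, chromosome 2, 73908447 to 73911326, GRCm38), was called in KO. It had 768, 497, 488 and 538 CPM in KO at 15 months, against 1049, 858 and 955 CPM at 2 months. In WT it had 614, 737, 639 and 583 CPM at 15 months, against 749, 983 and 1003 CPM at 2 months. The ages did not overlap in either genotype. The log2 fold change was −0.74 (SE 0.18, adjusted p = 0.0461 in edgeR's quasi-likelihood test) in KO and −0.50 (SE 0.18, adjusted p = 0.133) in WT.

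The other c-subunit genes encode the same mature protein with different import sequences, and their log2 fold changes were of similar size. Atp5g1 had 661, 470, 378 and 499 CPM in KO at 15 months against 892, 826 and 876 CPM at 2 months, and 536, 654, 524 and 528 CPM in WT at 15 months against 646, 1066 and 751 CPM at 2 months. Atp5g2 had 102, 79.3, 65.3 and 69.9 CPM in KO at 15 months against 141, 130 and 138 CPM at 2 months, and 80.3, 128, 98.7 and 72.1 CPM in WT at 15 months against 107, 160 and 162 CPM at 2 months. In KO both genes were without overlap, with log2 fold changes of −0.78 and −0.79 (adjusted p = 0.0528 and 0.0584 in edgeR's quasi-likelihood test), and in WT both overlapped. Atp5g2 shares 87.4% of its 50-base windows with other transcripts, whose counts came to 0.384% of its own. Atp5g1 shares 10.6% of its windows with 163 other genes, whose counts came to 737% of its own, and Cycs shares 28.2% with 43 other genes, whose counts came to 165% of its own. Of the stalk and peripheral subunits, Atp5o had log2 fold changes of −0.99 in KO and −0.78 in WT, Atp5h of −0.74 and −0.63, the central gamma subunit Atp5c1 of −0.58 and −0.51, and the delta subunit Atp5d of −0.24 and −0.08. Atp5a1 and Atp5b encode the alpha and beta subunits of the catalytic head. Atp5b, the catalytic beta subunit, had 2668, 3361, 3073 and 3208 CPM in KO at 15 months against 2622, 3307 and 3045 CPM at 2 months, and 3341, 2677, 3455 and 2843 CPM in WT at 15 months against 2978, 2530 and 2841 CPM at 2 months. Its log2 fold changes were 0.04 and 0.15, those of the alpha subunit Atp5a1 were 0.16 and 0.30, and none was called.

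The change with age varied with transcript length. The 15 members whose main annotated transcript is up to 700 bases long were all below 0, with a median of −1.01 in KO and −0.83 in WT, where the medians over all genes of that length were −0.74 and −0.65. The 12 members of 701 to 1500 bases were also all below 0, with medians of −0.73 and −0.54 beside −0.41 and −0.34 over all genes of that length. Of the 10 members over 1500 bases 6 were below 0, with medians of −0.27 and −0.19 beside 0.086 and 0.050 over all genes. The members above 0 were Sdha, Uqcrc1, Atp5a1 and Atp5b in both genotypes, and all have main transcripts over 1500 bases. Across the 37 genes, Spearman's rho of the log2 fold change with main transcript length was 0.58 in KO and 0.62 in WT. These points share their libraries and the genes are not independent replicates. Cox6a2, at 680 bases, departed from the other short transcripts.

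The calls with age depended on which libraries were used and on the length slope. With the length slope as a covariate, where 86 genes of all were called with age in KO and 123 in WT, Sdha, Uqcrc1, Atp5a1 and Atp5b turned to −0.10, −0.058, −0.26 and −0.20 in KO. The fit without KO replicate 1 at 15 months, in which 30 members were called in KO, called 3523 of 15617 genes in all. The fit without WT replicate 1 at 2 months, in which 6 members were called in WT, called 511 of 16034 genes. Without both 15-month libraries of negative length slope, 31 members were called in KO, 30 lower and 1 higher, and 26 in WT, 25 lower and 1 higher. That setting was chosen after the data were seen, and it called 4232 and 2627 genes of 15505. DESeq2 called 24 members in KO and 9 in WT, all lower.

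**Figure D3:**
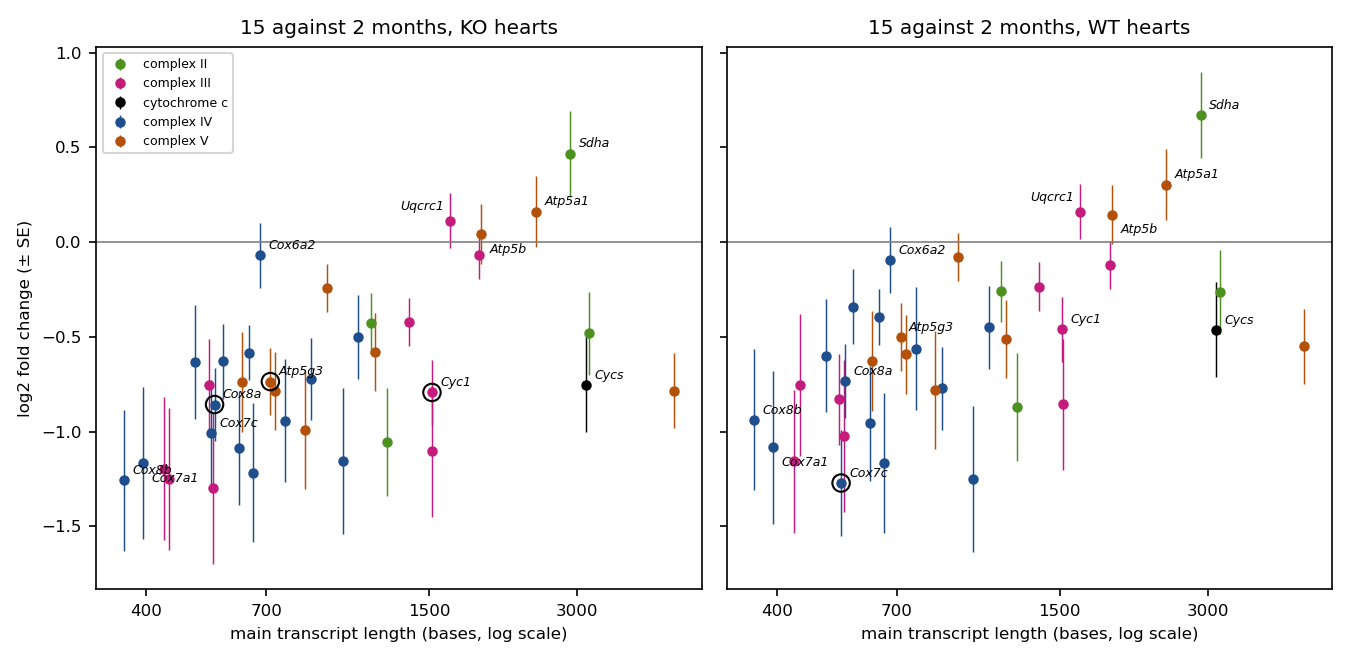
Log2 fold change between 15 and 2 months (± SE) of each member against the length of its main annotated transcript in bases (log scale), for KO hearts on the left and WT hearts on the right, coloured by complex. Black rings mark the members called, and the 4 points above 0 in each panel are transcripts over 1500 bases long.

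The comparison of genotypes asked whether loss of p62 in cardiac muscle changed these transcripts. No member passed the test. In edgeR's quasi-likelihood test with Benjamini-Hochberg adjustment, 0 of 37 were called at 15 months, at 2 months or over both ages, and 0.00644% of all genes, Sqstm1 itself, was called in each. The lowest adjusted p of a member was 0.999 at 15 months and 1 at 2 months. At an unadjusted p under 0.05 there were also 0 members in each comparison, and DESeq2 and limma voom called 0. For the members the KO and WT values overlapped in every case at both ages, where 1.99% of all genes at 15 months and 8.15% at 2 months showed no overlap in either direction.

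The genotype differences were small and lay on different sides of 0 at the 2 ages. At 15 months 28 of 37 were below 0, the median being −0.12 on the log2 scale and the range −0.40 to 0.24. At 2 months 26 of 37 were above 0, with a median of 0.048 and a range from −0.16 to 0.29. The median at 15 months was −0.31 without KO replicate 1 and −0.00018 without WT replicate 2. At 2 months it was −0.092 without WT replicate 1 and 0.17 without WT replicate 2, so its sign rested on which libraries were kept. Set against each other, the knockout effect at 15 months minus that at 2 months was below 0 for 31 of 37, with a median of −0.17, and 0 members were called in edgeR's quasi-likelihood test, 0 at an unadjusted p under 0.05, where 0% of all genes were called. This median also rested on single libraries. It was −0.025, with 19 of 37 below 0, without WT replicate 1 at 2 months, −0.039, with 20 below 0, without WT replicate 2 at 15 months, and −0.34, with 35 below 0, without KO replicate 1 at 15 months. With the length slope as a covariate it was −0.090, with 23 below 0. DESeq2 also called 0 members for this difference.

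Single members had the following values. Cyc1 gave the smallest unadjusted p at 15 months, with 451, 306, 277 and 356 CPM in KO against 416, 484, 413 and 414 CPM in WT. KO replicate 1 fell within the WT values, and the log2 fold change was −0.31 (SE 0.16). Cox6a2 was at 0.24 (SE 0.16) at 15 months, 0.21 (SE 0.18) at 2 months and 0.22 (SE 0.12) over both ages, with overlapping values each time. Sdha at 2 months had 535, 740 and 625 CPM in KO against 645, 457 and 450 CPM in WT, a log2 fold change of 0.29 (SE 0.24). For the difference between the knockout effects the smallest unadjusted p belonged to Cyc1, at −0.33, and Uqcrfs1, at −0.19. None of these was called, and with standard errors of this size changes of the same order in single members were not detectable.

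**Figure D4:**
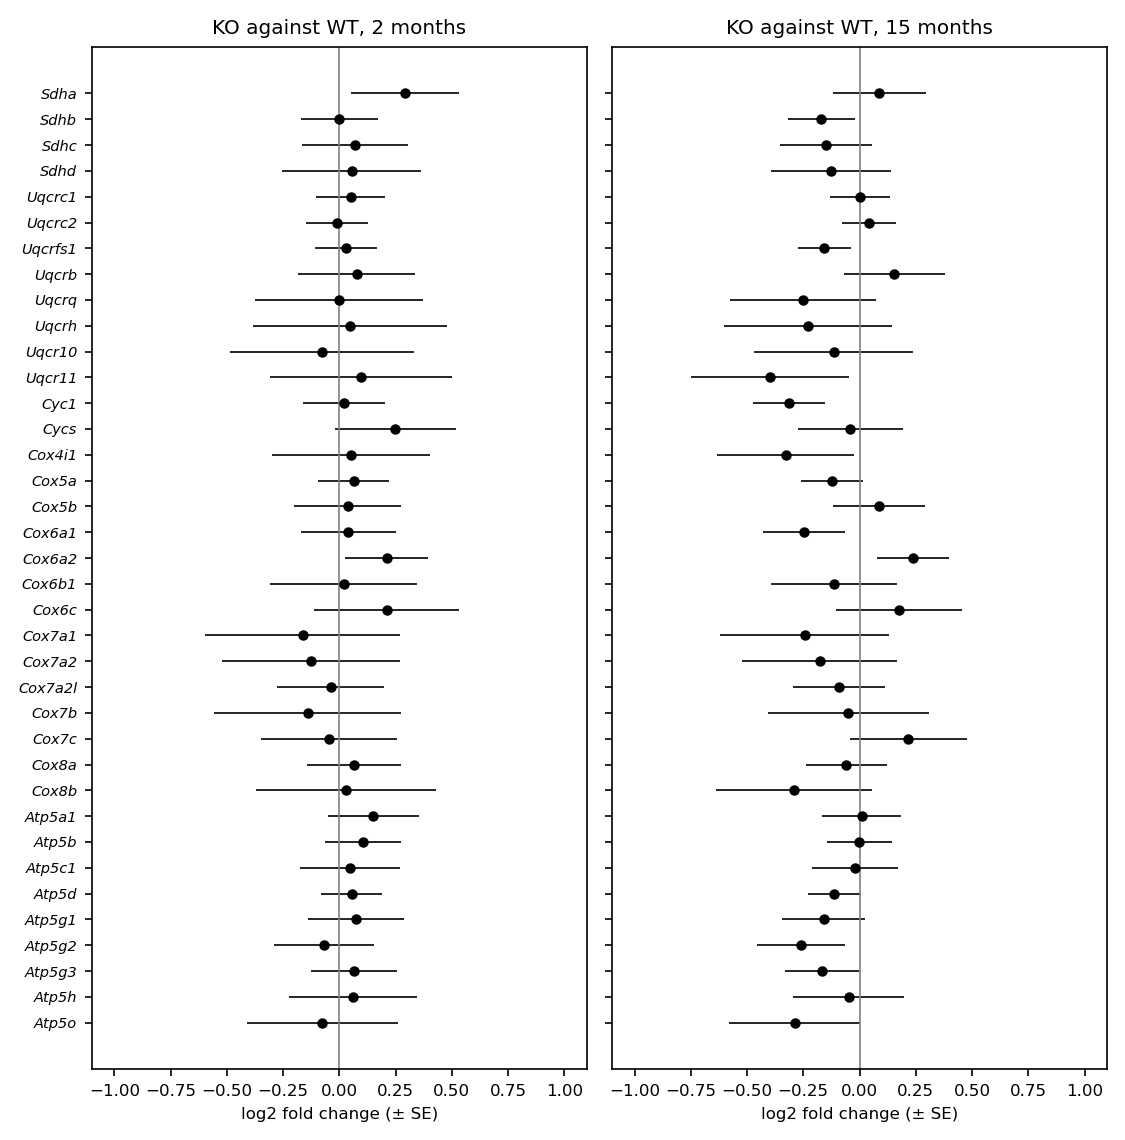
Log2 fold change of KO against WT (± SE) for each member at 2 months (left) and 15 months (right). Points lie between −0.16 and 0.29 at 2 months and between −0.40 and 0.24 at 15 months, and no member was called.

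Isoforms that fill 1 place in a complex were compared as shares within each library, from counts per kb of exon. Such a share needs no scaling for library totals, but whether it goes with the length slope was not tested. At 15 months the libraries of negative slope were KO replicate 1 and WT replicate 2. Each had the lowest Cox6a2 share of its group and the highest share of Cox8b in Cox8a plus Cox8b, 93.92% and 94.53%. The muscle isoform Cox6a2 made up 95.2%, 96.1%, 95.9% and 95.9% of Cox6a1 plus Cox6a2 in KO at 15 months, against 94.9%, 92.5%, 94.9% and 94.3% in WT. At 2 months its share was 94.3%, 93.8% and 93.5% in KO against 93.6%, 93.4% and 92.3% in WT. The KO values lay above all WT values at 15 months and overlapped them at 2 months. The KO share was higher by 1.65 percentage points at 15 months (exact permutation p = 0.0286, two-sided, the smallest this design allows) and by 1.23 points over both ages (exact permutation p = 0.00286 with labels permuted within age). Adjusted over the 20 tests of shares these became 0.19 and 0.0571 in the exact permutation tests, so neither passed 0.05. Without WT replicate 1 at 2 months the value over both ages was 1.35 points with an adjusted exact permutation p of 0.0286. Between ages the share was higher by 1.91 points at 15 months in KO (exact permutation p = 0.0286, adjusted 0.19) and by 1.05 points in WT (exact permutation p = 0.2, adjusted 0.667).

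None of the other shares passed 0.05 in the exact permutation tests. The smallest p these tests allow is 0.1 at 2 months and 0.0286 at 15 months and between ages. After adjustment over 20 tests such values could hardly pass, so these comparisons cannot show that the shares were equal. Cox7a1 made up 79.7% ± 2.01 of Cox7a1 plus Cox7a2 in KO and 81.1% ± 1.93 in WT at 15 months (SD, n = 4 each), and 79.6% ± 1.5 in KO and 79.6% ± 3.96 in WT at 2 months (SD, n = 3 each). Cox8b made up 91.1% ± 2.39 of Cox8a plus Cox8b in KO and 92.8% ± 1.66 in WT at 15 months, and 93.6% ± 1.1 in KO and 93.6% ± 1.35 in WT at 2 months. Atp5g1 held 24.8% ± 1.55 of the c-subunit sum in KO and 24.6% ± 1.03 in WT at 15 months, and 25.4% ± 0.994 in KO and 24.8% ± 3.46 in WT at 2 months. The lowest adjusted p among these 3 shares was 0.667 in the exact permutation tests. It belonged to the Cox8b share between ages in KO, at −2.58 points (exact permutation p = 0.143), with overlapping values. Leaving out single libraries gave −3.53 to −1.67 points there. In WT the Cox8b share between ages was at −0.794 points (exact permutation p = 0.543). The Atp5g1 share depends on the length used, since its coding transcripts are annotated from 596 to 4715 bases.

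**Figure D5:**
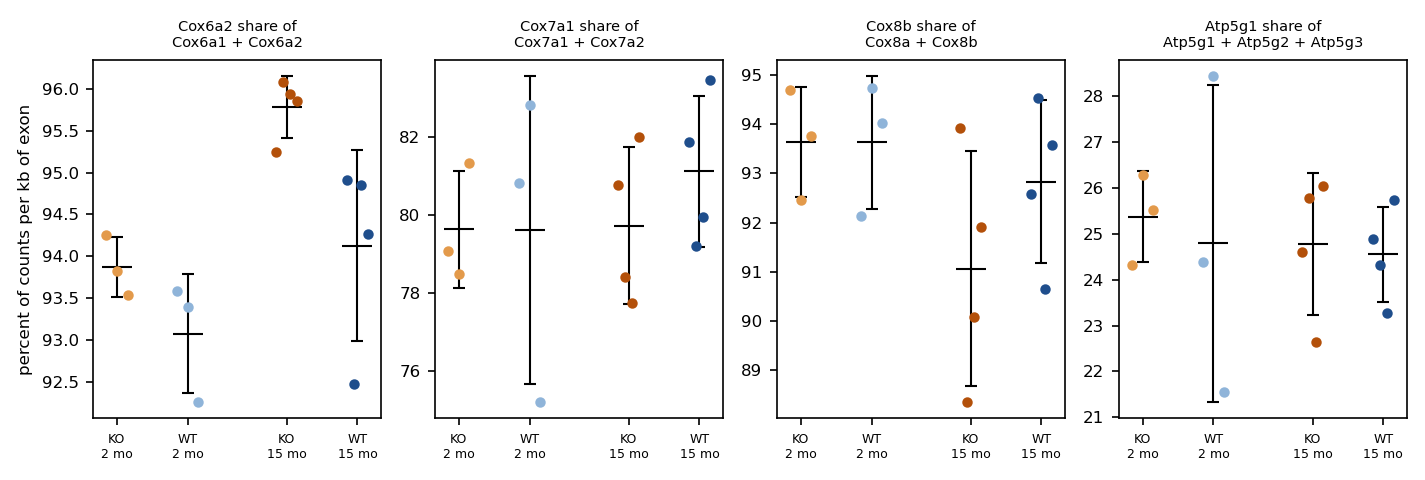
Share of an isoform among the genes for the same subunit, in percent of counts per kb of exon, in every library (points) with the mean and SD of each group (bars). The axes do not start at 0. The Cox6a2 share in KO at 15 months, 95.2% to 96.1%, lay above the WT share of 92.5% to 94.9%.

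Levels between genes were set side by side per kb, on the lengths of all exons and of the main transcript, as means over the 14 libraries. In complex II, Sdhc was lowest on both, at 89.6 and 91.9 RPKM, the CPM per kb. In complex III, Uqcr11 was highest on both, at 885 and 1274. In complex IV, Cox6a1 was lowest on both, at 64.9 and 79.8. These genes kept those places within each of the 4 groups, whereas the highest gene of complex IV changed with the group and the length used. In complex V, the beta subunit Atp5b and the alpha subunit Atp5a1 were at 707 and 721 by all exons and at 1564 and 914 by the main transcript. Atp5g2 was at 65.4 and 150, and Atp5g1 at 135 and 141, so that the lowest place in complex V changed with the length used.

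Related genes were counted in the same tests, from lists written from textbook knowledge. The 36 complex I genes, whose products feed electrons from NADH into the same chain, had 35 values below 0 with age in KO and 32 in WT, with medians of −0.76 and −0.61. In KO 1 of them (2.78%) was called lower, Ndufb6 at −1.37 (adjusted p = 0.0435 in edgeR's quasi-likelihood test). That share is near the 2.25% of all genes called in KO. In WT 0 were called, where 1.04% of all genes were. At an unadjusted p under 0.05 there were 29 in KO and 22 in WT, beside 4151 and 3694 of all 15528 genes. Of 13 tested further subunits, isoforms and associated proteins of complexes IV and V, all were below 0 with age in both genotypes. In KO 1 of these (7.69%, a single gene) was called lower, Atp5k, a small membrane subunit of the ATP synthase, at −1.72 (adjusted p = 0.0372 in edgeR's quasi-likelihood test). In WT 0 were called, 10 had an unadjusted p under 0.05, and Atp5k was at −1.32 (adjusted p = 0.0943 in the same test).

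Assembly factors and regulators had 0 genes called with age in edgeR's quasi-likelihood test in either genotype. The 10 factors for complexes II and III had medians of −0.57 in KO and −0.56 in WT, the 24 for complex IV of −0.50 and −0.20, and the 4 for complex V of −0.40 and −0.28. At an unadjusted p under 0.05 these lists held 7, 14 and 2 genes in KO and 5, 9 and 2 in WT, beside 4151 and 3694 of all 15528 genes. The genes with the smallest p were Uqcc3 in KO, at −0.93, and Sdhaf3 in WT, at −0.77, both assembly factors, then Higd1a in KO, at −1.09, and Higd2a in WT, at −0.85, and for complex V Fmc1 at −1.21 in KO and −1.28 in WT. The 17 transcription factors and coactivators of mitochondrial genes had medians of 0.098 in KO and 0.15 in WT, with 3 and 7 at an unadjusted p under 0.05. All of them except Tfb1m have main transcripts over 1500 bases. The medians over all genes of that length were 0.086 in KO and 0.050 in WT. Gabpa, a subunit of the factor that binds the GABP motif, was at 0.48 in KO, and the estrogen-related receptor gene Esrrb was at 0.55 in WT, neither called. The 6 subunits of these complexes that are encoded in mitochondrial DNA had medians of 0.14 in KO and −0.24 in WT, 0 called and 0 at an unadjusted p under 0.05. Of these, mt-Co1 and mt-Cytb were at 27707 CPM or more in every library. The genes mt-Co2, mt-Co3, mt-Atp6 and mt-Atp8 were at 1899 CPM or less, and the cause of that gap was not tested. In the comparisons of genotypes, and in the difference between the knockout effects, 0 genes of these lists were called in the same test. At an unadjusted p under 0.05 there was 1 complex IV assembly factor at 15 months, Cox11, and 1 regulator in each of 3 comparisons. Over all 15528 genes that threshold held 616 at 15 months, 494 at 2 months and 577 for the difference. The receptor gene Esrra had the smallest unadjusted p of the regulators at 15 months, with −0.53 (SE 0.19, adjusted p = 0.999 in edgeR's quasi-likelihood test).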

How the data were processed

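The deposited table holds unnormalised counts of reads for each gene, as whole numbers, made from libraries of a stranded kit with ribosomal RNA depletion, per the labels' protocols. The submitters' processing notes name cutadapt 1.16, STAR 2.7.3a, featureCounts 1.6.3, DESeq2 1.26.0 and the build GRCm38. The annotation release, strand option and rule for multi-mapped reads were not given in the sources used here. Of the members, 11 overlap a gene on the opposite strand, 6 overlap one on the same strand, and 18 share 50-base windows with other transcripts, so their counts could include or miss such reads. GENCODE M21 held 55227 of the 55487 identifiers, and Atp5o matched 2, of which the one at the RefSeq position was used. The table held 0 columns without a sample and 0 rows that name no gene.

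The counts were tested with edgeR 4.0.16 (filterByExpr with minimum count 10 and minimum total 15, TMM scaling, robust quasi-likelihood fit of all 14 libraries with 1 mean per group) in R 4.3.3, for 6 comparisons, with Benjamini-Hochberg adjustment over all 15528 genes at 0.05. A standard error (SE) is the log2 fold change divided by the square root of F. Isoform shares were compared with exact two-sided permutation tests, 20 in all. The edgeR procedure was also run on simulated counts, drawn separately for each gene and without a length slope between libraries. That run does not bear on length-dependent differences between libraries. Alternatives were RLE scaling, no filter, a mean CPM of at least 1, DESeq2 1.42.0, limma 3.58.1 voom, only the groups compared, a replicate block, no mitochondrially encoded genes, the length slope as a covariate, a threshold of 0.1, and leaving out each library.

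Members and lists were chosen with earlier results of these data known. Genes given in full were the 2 members with the smallest p in each comparison and the isoform groups, with others added after their values were seen. Other lists are named by their called genes, or by the gene with the smallest p. Nothing says that the hearts of a group were separate preparations, so the spread behind the p-values is that among these libraries, which may be partly technical. Library pairs differed by at least 18.7 in chi-square per degree of freedom, so none was a repeat within sampling noise. Within a group the lowest value was 28.9, so the most alike pair came from different groups.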

Additional observations from a re-analysis of the deposited data

Results flagged for a closer look

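Within the groups of 4, the gap of the highest or lowest library to the rest was compared with the group's range by Dixon's criterion at 95%. Of 84 groups tested 12 were marked, and chance marks about 1 in 20. The genes share libraries, so these are not separate events.

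WT replicate 2 at 15 months was high for 9 members. In that library Uqcrb was at 401 CPM, against 328 to 338 CPM in the other WT libraries of that age, Uqcr11 at 752 CPM against 324 to 391 CPM, and Cyc1 at 484 CPM against 413 to 416 CPM. Of complex IV, Cox4i1 was at 2226 CPM against 1049 to 1179 CPM, Cox5a at 464 CPM against 368 to 383 CPM, Cox6b1 at 758 CPM against 423 to 442 CPM, and Cox7a2l at 207 CPM against 124 to 132 CPM. Of complex V, Atp5g1 was at 654 CPM against 524 to 536 CPM, and Atp5h at 907 CPM against 509 to 534 CPM. The library has a length slope of −0.0744, whose part in these values was not tested.

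KO replicate 1 at 15 months was low for 2 members with long transcripts, Sdha at 617 CPM against 938 to 994 CPM in the other KO libraries of that age, and Atp5a1 at 1824 CPM against 2578 to 2643 CPM. Its length slope is −0.0916. KO replicate 2 at 15 months had Sqstm1 at 37 CPM against 14.6 to 17.6 CPM in the other KO libraries, below all WT values.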

How the results depend on the processing

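The 0 members called between genotypes, and for the difference between the knockout effects, stayed 0 under every alternative run. With age, the members called were 3 in KO and 1 in WT. They were 5 and 2 without a filter, 24 and 9 with DESeq2, 6 and 0 with limma voom, 0 and 1 with only the groups compared, 0 and 0 with the replicate block, 0 and 0 with the length slope as covariate, 22 and 4 at a threshold of 0.1 (which called 1616 and 706 genes in all), and 31 and 26 without the 15-month libraries of negative slope. Leaving out 1 library gave 0 to 30 in KO and 0 to 6 in WT. With the replicate block the medians were −0.73 and −0.53 and 70 and 55 genes were called with age in all, against 349 and 161 without it. The main fit did not pair samples by replicate number. Correlations of deviations between libraries of equal number ranged from −0.441 to 0.320 and were not set against those of unequal number. Whether equal numbers mark paired samples was therefore not tested. The median with age moved to −0.203 in KO and −0.131 in WT with the length slope as covariate, which called 86 and 123 genes. DESeq2 called 1622 and 1100 genes with age, and the fit of only the groups compared called 134 and 86; the cause was not tested.

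With the length slope as covariate these values turned sign: in KO Sdha −0.10, Uqcrc1 −0.058, Cox6a2 0.13, Cox6c 0.053, Cox7a2l 0.040, Atp5a1 −0.26 and Atp5b −0.20, and in WT Sdhc 0.039, Uqcr11 0.028, Cox4i1 0.090, Cox6a2 0.076, Cox6c 0.0095, Atp5a1 −0.012 and Atp5b −0.038. Leaving out 1 library gave −0.20 to 0.047 for Cox6a2 and −0.044 to 0.12 for Atp5b with age in KO, and −0.19 to 0.024 for Cox6a2 and −0.13 to 0.0096 for Atp5d in WT.

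Of the isoform shares, the difference of KO and WT at 2 months turned to −0.0541 points for Cox7a1 without division by length, and to log2 ratios of −0.0122 for Cox7a1 and −0.0034 for Cox8b. Leaving out 1 library gave, for Cox7a1, −2.19 to 1.62 points between genotypes at 2 months, −1.79 to 0.114 over both ages, −0.66 to 0.951 with age in KO and −0.696 to 3.12 in WT. For Cox8b it gave −0.739 to 0.6 at 2 months. For Atp5g1 it gave −1.04 to 2.4 at 2 months, −0.211 to 0.926 at 15 months, −0.41 to 1.31 over both ages, −1.14 to 0.1 with age in KO and −1.86 to 1.58 in WT. The Cox6a2 share over both ages ranged from 0.95 to 1.36 points and passed the adjusted threshold only without WT replicate 1 at 2 months.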

Other observations

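Mitochondrially and nuclear-encoded transcripts of complex IV were also set against each other. The summed CPM of mt-Co1, mt-Co2 and mt-Co3, the catalytic core, was 22.3, 22.5, 27.2 and 26.3 times that of the 14 nuclear complex IV genes in KO hearts at 15 months, against 14, 13.5 and 13 times at 2 months. In WT it was 21.6, 14.9, 17.1 and 20.2 times at 15 months, against 13.4, 14.1 and 14.9 times at 2 months. The KO libraries lay above the WT libraries at 15 months without overlap and overlapped them at 2 months. Nearly all of the mitochondrial sum was mt-Co1, at 95617 to 213872 CPM, beside 113 to 554 CPM for mt-Co2 and 275 to 1899 CPM for mt-Co3. The ratio therefore follows mt-Co1. It was looked at after the data were seen and no test was made. The share of counts on mitochondrially encoded genes, whose part in the ratio was not tested, was 46.0%, 32.8%, 27.5% and 38.0% in the KO libraries at 15 months and 32.0%, 29.4%, 28.4% and 32.6% in the WT libraries.

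Among the assembly factors of complex IV, Lrpprc, which binds and stabilises mitochondrial mRNAs, was at 0.95 (SE 0.29) with age in KO and 1.02 (SE 0.29) in WT on the log2 scale. It was chosen after its values were seen and was not called (adjusted p = 0.0821 and 0.0929 in edgeR's quasi-likelihood test). At 15 months it had 97.7, 172, 231 and 220 CPM in KO and 200, 98.6, 166 and 190 CPM in WT. At 2 months it had 77.8 to 114 CPM in KO and 69.3 to 101 CPM in WT, so the ages overlapped. The overlapping libraries, KO replicate 1 and WT replicate 2, are those of negative length slope. Its main transcript is 4393 bases long, and the part of length was not tested.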
